A study of Caenorhabditis elegans with 2 samples.

Results

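The DPL-1 peaks of chromosome III of Caenorhabditis elegans were the 611 peaks on that chromosome, of 2797 on all 6 chromosomes (21.8%), in the list that passed the irreproducible discovery rate (IDR) procedure on build ce11, the same assembly as WBcel235. The IDR procedure compares the order of peaks in the replicates. Here the list held the 2797 strongest of the pooled peaks, and some of them differed widely in rank between the replicates. Each peak was placed at its summit, the base that the peak caller marked as its highest point, and its signal is the caller's own enrichment value, on a scale that the sources used here do not give. These peaks come from ChIP-seq in whole L1 larvae, the first larval stage, of mixed sex and unknown age. Both samples were biological replicates of strain OP105, an unc-119(ed3) background that carries the integrated array wgIs105. The array holds dpl-1 fused to TY1, EGFP and FLAG tags together with unc-119, so every sample carried the tagged copy and the marker gene. There was 1 group and no second condition, and a control experiment that the labels name as possible was not analysed here. The values average over all cells of the larva, and an untagged strain was not analysed here. Peaks and chromosomes of the same 2 libraries are not independent samples, so no test between chromosomes or between classes of peaks was made. Differences are set beside the value in each replicate, n = 2, and beside exact Clopper-Pearson 95% intervals, which cover counting error only.

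DPL-1 is the worm DP protein. It pairs with the E2F proteins EFL-1 and EFL-2, and the pair binds short GC-rich words of the E2F type in promoters. With the retinoblastoma homologue LIN-35 and the MuvB proteins, among them LIN-9, LIN-37, LIN-52 and LIN-54, it forms the DREAM complex, known for keeping cell-cycle and germline genes low in non-dividing and somatic cells. LIN-54 contacts a second element, the cell-cycle genes homology region (CHR), written TTTGAA. Most cells of an L1 larva are differentiated, while a set of blast cells divides.

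The bases from 100 bp before to 100 bp after the summit are shown for peaks that carry the main patterns below. The first 5 are among the 10 strongest of the chromosome. The mcm-6 and rnr-1 windows were chosen after their values were seen, for having several E2F words, and the lin-9 and egl-5 windows stand for a DREAM gene and for a Hox gene. All are the + strand of WBcel235, and capitals mark an E2F word (TTGGCGC, its variants TTCCCGC and TTGCCGC, or the word TTCGCGC) or the CHR word TTTGAA, each read on either strand, where the reverse of the CHR word is TTCAAA. No E2F word holds the CHR word, but the words can abut, as at fipr-17.
rpl-3, III:3867461-3867661: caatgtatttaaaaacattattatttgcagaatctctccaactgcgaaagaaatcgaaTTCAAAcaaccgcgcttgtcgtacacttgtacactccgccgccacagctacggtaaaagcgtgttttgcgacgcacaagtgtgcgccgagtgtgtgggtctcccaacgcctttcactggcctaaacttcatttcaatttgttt
rpl-35, III:7854579-7854779: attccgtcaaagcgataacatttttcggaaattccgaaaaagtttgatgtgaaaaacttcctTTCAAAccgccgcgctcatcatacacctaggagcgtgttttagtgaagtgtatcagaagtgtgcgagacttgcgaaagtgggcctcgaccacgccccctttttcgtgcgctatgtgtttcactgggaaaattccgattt
cox-5A, III:12905099-12905299: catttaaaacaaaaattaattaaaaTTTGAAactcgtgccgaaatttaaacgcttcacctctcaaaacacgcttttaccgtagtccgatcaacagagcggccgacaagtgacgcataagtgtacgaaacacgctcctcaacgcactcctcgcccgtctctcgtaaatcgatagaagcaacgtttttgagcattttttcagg
pdhk-2, III:8741554-8741754: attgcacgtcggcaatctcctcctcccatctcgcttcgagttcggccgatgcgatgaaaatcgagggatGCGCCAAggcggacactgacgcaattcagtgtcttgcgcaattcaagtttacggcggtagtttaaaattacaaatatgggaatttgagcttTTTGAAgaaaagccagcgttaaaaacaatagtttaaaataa
fipr-17 and Y48A6B.3, III:11007800-11008000: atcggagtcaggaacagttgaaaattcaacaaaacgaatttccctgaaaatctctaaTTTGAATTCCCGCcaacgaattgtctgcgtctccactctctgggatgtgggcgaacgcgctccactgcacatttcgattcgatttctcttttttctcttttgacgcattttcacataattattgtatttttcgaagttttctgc
mcm-6 and R10E11.9, III:9794063-9794263: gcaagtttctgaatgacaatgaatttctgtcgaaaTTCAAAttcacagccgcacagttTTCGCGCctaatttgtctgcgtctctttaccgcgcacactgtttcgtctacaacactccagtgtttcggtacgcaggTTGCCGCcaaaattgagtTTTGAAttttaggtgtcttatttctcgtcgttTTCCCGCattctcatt
rnr-1, III:9228287-9228487: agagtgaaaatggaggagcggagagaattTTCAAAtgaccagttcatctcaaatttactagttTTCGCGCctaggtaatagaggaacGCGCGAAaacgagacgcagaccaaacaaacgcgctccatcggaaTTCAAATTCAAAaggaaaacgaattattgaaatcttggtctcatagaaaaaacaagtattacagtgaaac
lin-9, III:8904187-8904387: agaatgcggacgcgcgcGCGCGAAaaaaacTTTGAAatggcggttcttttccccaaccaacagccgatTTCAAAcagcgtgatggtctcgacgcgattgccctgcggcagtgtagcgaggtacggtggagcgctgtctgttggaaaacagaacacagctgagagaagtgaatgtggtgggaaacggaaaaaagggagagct
egl-5, intron, III:7814655-7814855: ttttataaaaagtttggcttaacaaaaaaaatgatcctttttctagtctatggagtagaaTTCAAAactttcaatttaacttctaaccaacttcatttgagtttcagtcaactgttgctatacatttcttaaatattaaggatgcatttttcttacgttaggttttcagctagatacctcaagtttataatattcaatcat

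The CHR word marked the strongest peaks of the chromosome. The word was found no more than 100 bp from the summit in 19 of the 20 strongest, 42 of the 50 strongest and 78 of the 100 strongest peaks. When the peaks were ranked into 5 quintiles by signal, the share with the word was 77.2% in the strongest quintile (interval 68.8 to 84.3, n = 123) and 41.8%, 35.2%, 36.9% and 30.3% in the following ones. The step lay between the first and the second quintile, and the intervals of the lower 4 overlapped. Of all windows of the same length tiled along the chromosome, 48.8% held the word, more than in each of the lower 4 quintiles. Replicate 1, ranked on its own list, gave 79.0% in the strongest quintile and 31.5% to 40.3% in the others. Replicate 2 gave 74.0% and 28.8% to 40.7%. The drop after the strongest quintile was thus far larger than the spread between the replicates. On the other 5 chromosomes the shares were 67.6% in the strongest quintile and 33.4% to 40.3% in the others, so the pattern was not confined to III.

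Over all 611 peaks the CHR word was no more frequent than elsewhere. It was present in 271 (44.4%; 45.2% and 43.5% in the strongest peaks of replicates 1 and 2), against 52.3% of the windows of the same length just upstream of all 2640 protein-coding genes of III and 48.8% of all 68576 windows tiled along the chromosome. The upstream windows held it in 54.4% at genes with a peak and 51.7% at genes without. Base composition differs between these windows: the median GC content was 40.3% at the peaks, 32.3% upstream of genes without a peak and 35.3% in the tiles, and its part in the shares was not tested. Within the peaks it moved little with signal, with medians of 39.3% in the strongest quintile and 40.3% to 41.8% in the others. The share with the CHR word also differed by place. It was 49.9% (223 of 447) in promoter windows, defined below, and 29.3% (48 of 164) outside them. Stronger peaks lay more often in promoter windows, and the part of this in the step was not tested. Peaks with the word had a median signal of 127, those without it 66.1. The nearest CHR word lay a median of 39 bp from the summit, and within 25 bp in 59 peaks. The strongest peak without it, also the only such peak among the 20 strongest, lay between tasp-1 and K01G5.10 and held an E2F word.

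**Figure D1:**
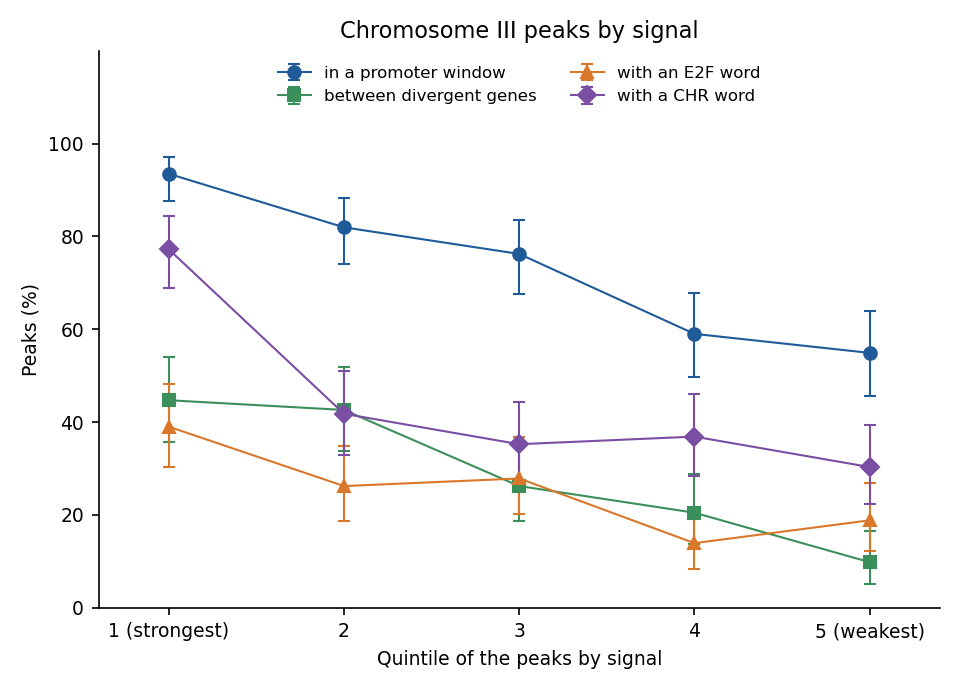
Share of chromosome III peaks (%, vertical axis) in each quintile by signal (horizontal axis; 123 peaks in the first, 122 in each other) that lay in a promoter window, between divergent genes, or had an E2F or a CHR word within 100 bp of the summit; bars are exact 95% intervals. The CHR line falls from 77.2% to 41.8% in 1 step, while the promoter line falls over the whole range.

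E2F words were less frequent, and stood at a larger share of peaks than of promoters without a peak. They lay within 100 bp of 154 of the 611 summits (25.2%, interval 21.8 to 28.8; 23.7% and 24.0% in the replicates; 23.9% ± 0.224, SD, n = 2). Windows upstream of genes without a peak held one in 5.71%, and all tiles of the chromosome in 7.30%. The same upstream windows at genes with a peak, which need not hold the summit, held one in 12.5% (80 of 642). Median GC content was 40.3% at the peaks, 32.8% upstream of genes with a peak and 32.3% upstream of those without. Its part in the E2F shares was not tested. On the other 5 chromosomes the share of peaks with an E2F word was 22.5%. The 4 words were found in 55 (TTGGCGC), 41 (TTCCCGC), 25 (TTGCCGC) and 50 (TTCGCGC) peaks, and 25 peaks had at least 2 E2F words. Words lay a median of 30.5 bp from the summit. From the strongest to the weakest quintile the share was 39.0%, 26.2%, 27.9%, 13.9% and 18.9%, and the first quintile was at 37.9% and 37.8% in the replicates. Both an E2F and a CHR word were present in 93 peaks (15.2%), in 30.9% of the strongest quintile and in 3.28% to 17.2% of the others.

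Words of 6 and of 9 bases were also ranked without a choice of motif; the E2F words, of 7 bases, are not among them. Among 2080 words of 6 bases, read on both strands together and ranked by the difference in share, GAGAGA came first. It was present in 238 peaks (39.0%; 36.3% and 40.1% in the replicates), in 16.4% of the 1998 windows upstream of unbound genes and in 10.8% of tiles. Among words of 9 bases CTGCGTCTC was present in 81 peaks (13.3%; 12.4% and 15.2%), against 2.35% and 1.11%. These words were picked on the same windows in which they are counted, so the counts describe and test nothing. GAGAGA ran against signal: it was in 25.2% of the strongest quintile and 48.4% of the weakest, in 33.3% of peaks in promoter windows and 54.3% of peaks outside them. The median GC content was 45.8% at peaks outside promoter windows and 39.3% at those inside. The other 5 chromosomes had like shares, 36.2% for GAGAGA and 13.8% for CTGCGTCTC.

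The 20 strongest peaks lay at genes of varied roles. The strongest of the chromosome lay at -293 bp from the 5′ end of rpl-3, a gene of the large ribosomal subunit. Its signal was 2461 in the pooled data, 1534 in replicate 1 and 934.7 in replicate 2, and it was at rank 1 of all chromosomes in each. The peak at -455 bp from rpl-35, another large-subunit gene, had 1947 pooled, 1189 and 759.8 in the replicates, rank 3 in both. At cox-5A, a cytochrome c oxidase subunit, the signal was 1436, with 891.9 and 551.2 in the replicates and rank 10 in both. Replicate 2 had lower values than replicate 1 at all 3 genes while their ranks were equal; each list's values are on a scale of its own.

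Further mitochondrial genes were ddp-1, a small Tim-type import chaperone that shares its peak (1283) with ttc-7, pdhk-2, a pyruvate dehydrogenase kinase (1181), and ant-1.1, an ADP/ATP carrier (877, shared with T27E9.2 and abcf-2). Genes of protein turnover and sorting were fbxl-2, an F-box gene (1118), ubc-7, a ubiquitin-conjugating enzyme (814), and vps-22, an ESCRT subunit (981, shared with C27F2.9). The peak of tasp-1, the homologue of the protease taspase, had 1833. Small-subunit ribosomal genes shared peaks with genes of genome maintenance: rps-22 with polh-1, a translesion polymerase (910), and rps-12 with ska-3, a kinetochore gene (896). The peak of rab-18, kbp-4 and par-2 (851) lay in the 5′ UTR of rab-18, a small GTPase gene, next to kbp-4, a kinetochore gene. The remaining peaks of the 20 were those of smr-1 (895), fipr-17 with Y48A6B.3 (1023), F56A8.3 (837), elb-1 with Y41C4A.11 and Y41C4A.9 (795), umps-1, a pyrimidine synthesis gene (775), and a pair inside egl-5. In replicate 1 these 20 ranked between 1 and 86 of all chromosomes, and in replicate 2 between 1 and 76. The weakest peaks of the list were near nop-1 (signal 30.394), Y39E4B.6 (30.380) and tbc-10 (30.368), and the next ones on III just below the list, near F01F1.3, W09D6.5 and F56A8.3, had 30.212, 30.164 and 30.154 in the pooled data.

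The pair inside egl-5 stood apart from promoter peaks. egl-5 (III:7814374-7817141, + strand) is a posterior Hox gene that patterns the tail. The authors' peak caller drew 1 interval of 2662 bp over it, against a median width of 316 bp, with 5 summits. The summit in the intron shown above had a signal of 1211, with 712.8 in replicate 1 and 423.7 in replicate 2, at ranks 21 and 24. The summit in the 3′ UTR had 1200, with 790.7 and 524.0, at ranks 17 and 13. Both held a CHR word and no E2F word. Of the other 3, the summit with a pooled signal of 504 was matched in replicate 1 only, that with 206 in replicate 2 only, and that with 47.7 in neither, so both replicates shared the outer pair and placed the inner summits differently. None lay in the promoter window of egl-5. No peak was in the promoter window of, inside or nearest to the other 5 Hox genes of the chromosome, ceh-13, lin-39, mab-5, nob-1 and php-3.

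Most peaks lay at promoters, and more so the stronger they were. A promoter window covered 1000 bp before and 200 bp after any annotated 5′ end of a protein-coding gene. Such windows held 447 of the 611 summits (73.2%, interval 69.5 to 76.6), near the 75.3% on the other 5 chromosomes. The part of III that such windows cover is not given here, so the share has no background beside it. The same holds for the classes of position that follow. The replicates gave 73.5% and 71.7% on III (72.6% ± 1.28, SD, n = 2). From the strongest to the weakest quintile the share was 93.5%, 82.0%, 76.2%, 59.0% and 54.9%, and in replicate 2 91.6%, 80.5%, 77.1%, 55.1% and 54.2%. In the pooled list without the IDR threshold, with 3857 peaks on III, it was 36.2%. The median distance from the nearest 5′ end was -163 bp, negative meaning upstream, and 504 summits (82.5%) were upstream of it. Many C. elegans messages are trans-spliced, and annotated 5′ ends of such genes can lie downstream of the true start.

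By position, 447 summits were intergenic, 127 in introns (20.8%, interval 17.6 to 24.2, against 15.1% on the other 5 chromosomes), 26 in 5′ UTRs, 7 in 3′ UTRs and 4 in coding exons. A summit between divergent genes, in the windows of genes on opposite strands, was found for 176 peaks (28.8%). Their median signal was 136, against 74.9 for peaks in the window of 1 gene and 49.3 for the 164 peaks in no window. The divergent share fell from 44.7% in the strongest quintile to 9.84% in the weakest. Of the 164 peaks in no window, 87 were intergenic and 72 intronic. Of the same 164, 118 were near no annotated non-coding 5′ end, 28 were near one of an ncRNA gene, 10 of a tRNA gene, 6 of a snoRNA gene and 4 of a miRNA gene. The strongest of the miRNA peaks lay in an intron of gcn-1, near the 5′ ends of mir-229, mir-64, mir-65 and mir-66, with a signal of 165 and ranks 677 and 673 in the replicates.

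Chromosome III had the most peaks per length of the 6 chromosomes. Its density was 44.3 peaks per Mb over 13.784 Mb (45.0 and 42.9 in the replicates; 43.9 ± 1.49, SD, n = 2), and that of the other 5 together 25.3 (25.2 and 25.5; 25.3 ± 0.237). The replicates did not overlap between III and the other 5. Chromosome I was next, at 39.5 (38.7 and 39.7). Per gene III and I were again the first pair, with 23.1 peaks per 100 protein-coding genes on III, 20.7 on I and 12.6 on the other 5 together. In the pooled list the median strength of the III peaks was near that of I and V. Of the 100 strongest peaks of all chromosomes 25 were on III (interval 16.9 to 34.7, replicates 24 and 27), against its 21.8% of all peaks. It held 15 of the 50 strongest (30%, interval 17.9 to 44.6) and 8 of the 20 strongest (40%, interval 19.1 to 63.9). The median signal was 78.1 on III, 78.7 on V, 75.9 on I and 51.2 on X in the same list. In replicate 1 it was 47.4 on III and 43.5 on the other 5 together, and in replicate 2 33.7 and 27.1.

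**Figure D2:**
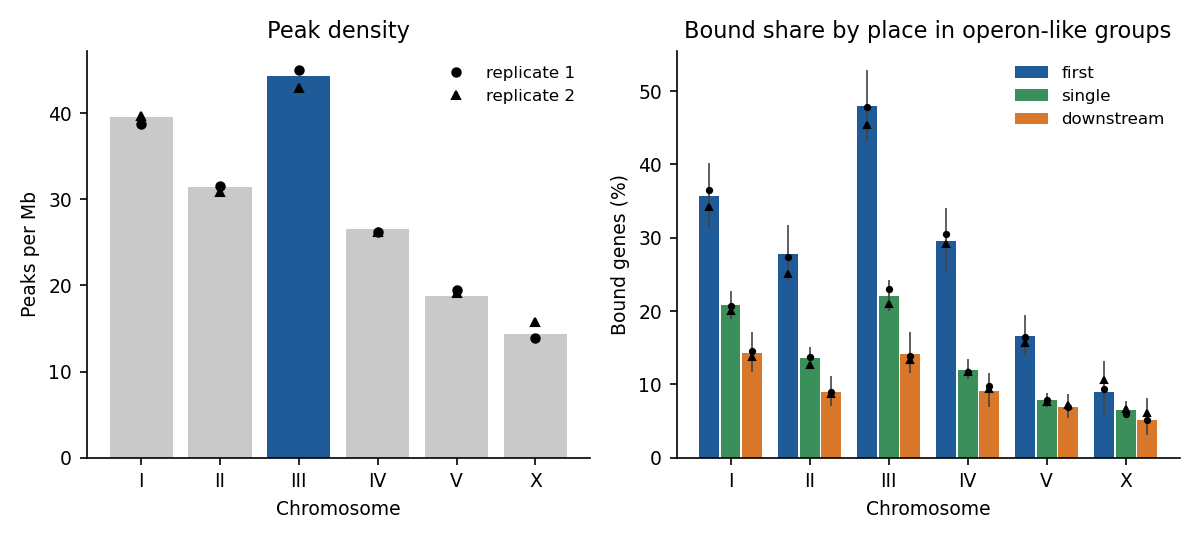
Left, peaks per Mb (vertical axis) by chromosome; bars are the IDR list and symbols each replicate's own strongest peaks. Right, share of protein-coding genes bound (%) by chromosome and by place in operon-like groups, with exact 95% intervals; chromosome III has the highest bars for density (44.3) and for first genes (48.0%).

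Along the chromosome the peaks were densest in the centre by length but not by gene. The centres of worm autosomes are gene-rich and the arms hold more repeats and young gene families. The central 50% of III held 369 peaks, at 53.5 per Mb. These were 60.4% of its peaks (interval 56.4 to 64.3, replicates 61.3% and 59.7%), near the 58.2% on the other 5 chromosomes. The right 25% held 148, at 42.9 per Mb, and the left 25% held 94, at 27.3 per Mb. The replicates gave 380 and 353 peaks in the centre, 147 and 144 in the right arm, and 93 and 94 in the left arm, so the order of the 3 was the same in both. Protein-coding genes stood at 227 per Mb in the centre, 158 in the right arm and 154 in the left arm. Per 100 genes the right arm had 27.1 peaks, the centre 23.6 and the left arm 17.7. Median signals were close, at 80.3, 78.1 and 75.3.

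The left arm thus differed from the right arm at nearly equal gene density. Of its 531 protein-coding genes 84 were bound (15.8%, interval 12.8 to 19.2), against 152 of 546 in the right arm (27.8%, interval 24.1 to 31.8) and 406 of 1563 in the centre (26.0%). Here a gene is called bound where a summit lies in its promoter window, and the same call held for 24.3% of all genes of III and 14.3% of the genes of all chromosomes. Unequal arms were not confined to III. Left and right arms were bound at 27.4% and 17.4% on I, 7.27% and 19.4% on II, and 17.1% and 9.77% on IV. On V they stood at 6.37% and 4.30%, and on X at 5.51% and 7.75%. The left arm holds 60 of the 72 genes of the F-box, MATH and BTB families on III, large adaptor families of protein degradation, and 6 of these 60 and 9 of the 72 were bound. Without these families and the chemoreceptors, 16.8% of 464 genes of the left arm were bound (18.1% and 16.8% in the replicates) and 28.1% of 533 genes of the right arm (28.1% and 26.6%). The difference between the arms was close to that with the families, and larger than the spread between the replicates. In 20 bins of 5% of the length, the counts ran from 15 peaks at 5 to 10% of the length, where 134 genes lie, to 43 peaks at 30 to 35% and at 60 to 65%. The bin at 90 to 95% had the most peaks per 100 genes, 40.4 with 38 peaks and 94 genes. It had 40.4 in replicate 1 and 33.0 in replicate 2, where the bin at 60 to 65% had 30.1. Bins of the left arm ranged from 11.2 to 25 per 100 genes and those of the centre from 19.2 to 28.1.

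**Figure D3:**
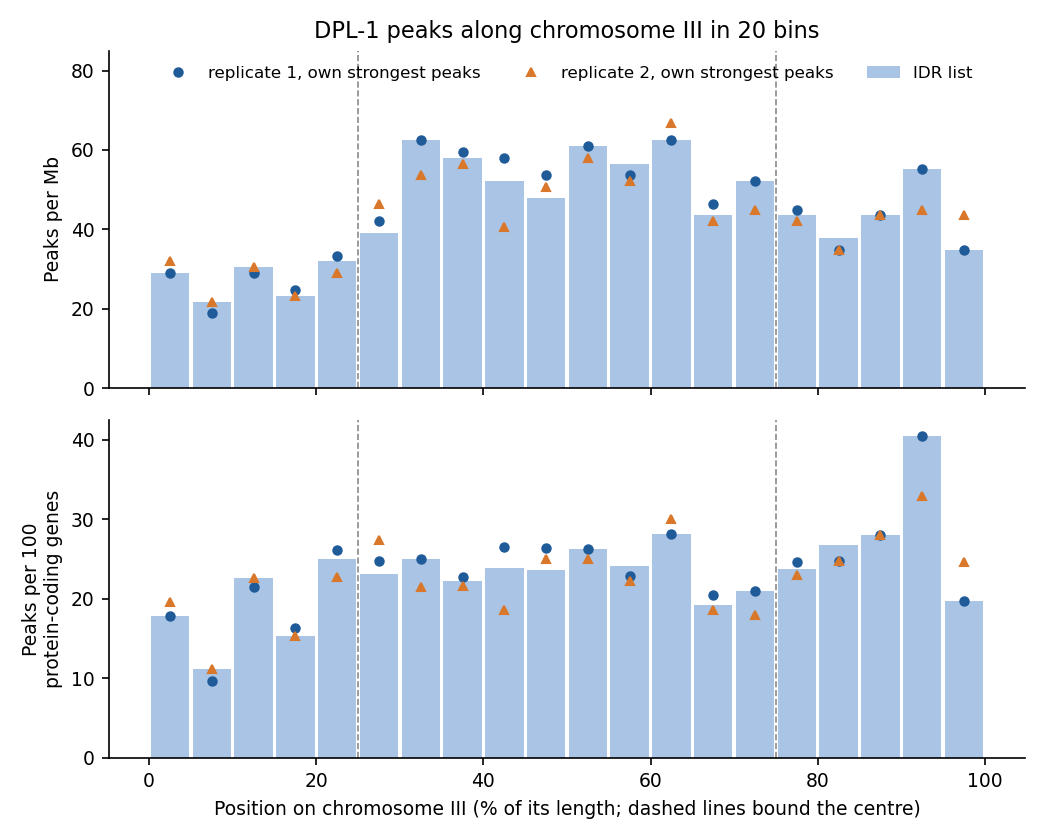
Peaks per Mb (top) and per 100 protein-coding genes (bottom) in 20 equal bins along chromosome III (horizontal axis, % of its length); bars are the IDR list, symbols each replicate's own strongest peaks, and dashed lines bound the centre. The left arm is low by length, its bins overlap the centre's per gene, and the bin at 90 to 95% is the highest per gene (40.4).

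The densest 100 kb windows were of different kinds. III:7116847-7216846 held 14 peaks among 31 genes, with 3 cytoplasmic ribosomal protein peaks, at rps-14 with rpl-36, at rps-21 and at rpl-6. III:12528201-12628200 held 14 peaks among 5 genes. It lies in the bin at 90 to 95% of the length, which had 38 peaks and 94 genes. The 14 peaks of the window lay in and around the introns of aakg-1, an AMP-activated kinase subunit, in introns of Y111B2A.12, and upstream of epc-1, the Enhancer of Polycomb homologue, gldi-8 and pqn-80. Their signals ran from 31.8 to 436, and 5 of the 14 lay in promoter windows. The longest stretch without a peak was III:1682487-1854295 in the left arm, 171809 bp with 21 genes. The next, III:1249429-1418891, spanned 48 genes, many of them fbxa- genes. The third in length, III:9228388-9393495, began at the peak of rnr-1 and held 29 genes, among them dat-1, the dopamine transporter gene, and cpb-1, a germline RNA-binding protein gene. How reads that fit several copies of a gene family were treated is not stated in the files or labels.

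On III, 642 of 2640 protein-coding genes were bound (24.3%, interval 22.7 to 26.0; 24.8% and 23.0% in the replicates, 23.9% ± 1.26, SD, n = 2), against 12.8% on the other 5 chromosomes (12.6% ± 0.265). When a summit counted only for its nearest gene, the values were 16.4% and 9.23%. The bound genes of III had a median signal of 125. Genes were compared in 29 lists. Genes in none of the lists were also bound more often on III: 21.7% of 2271 were bound on III (22.3% and 20.6%) and 12.4% on the other 5 (12.4% and 12.0%). The lists themselves were bound at 40.4% on III and 14.8% elsewhere, but III has few members of the large, rarely bound families, with 31 of 1309 chemoreceptor genes and 8 of 269 nuclear hormone receptor genes.

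The DNA replication list was bound throughout. All 13 of its genes on III had a peak, also in each replicate, against 24.3% of all genes of the chromosome; on the other 5 chromosomes 27 of 35 were bound, and by nearest gene 11 of the 13 on III. The median signal was 302, and 8 of the 13 peaks held an E2F word. The strongest was at tim-1, the Timeless homologue of the replication fork, with 657 pooled and 400.8 and 251.8 in the replicates, ranks 108 and 96. At rfc-4, a clamp loader subunit whose peak is shared with eef-1A.1, the values were 632, 381.1 and 250.9. The catalytic subunit gene of polymerase alpha, pola-1, had 490, with 291.1 and 192.6. These 3 genes were at ranks 96 to 188 of all chromosomes in both replicates.

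Ribonucleotide reductase supplies deoxynucleotides for replication. Its large-subunit gene rnr-1 had a signal of 365 (238.2 and 117.8 in the replicates), and the rnr-2 peak, shared with C03C10.7, had 104 (75.5 and 27.1). In the window of rnr-1 shown above there are 2 E2F words, and the rnr-2 peak has 3. The origin recognition genes ran from high to low: orc-1 had 329, orc-3 287 and orc-4 39.8. The orc-4 gene follows orc-1 in an operon-like group of 2 genes, described below, and its summit lay 34 bp downstream of its 5′ end. The MCM helicase genes mcm-6 (304) and mcm-5 (247) and mcm-10, a factor of helicase activation (302), had like pooled signals, but the mcm-10 summit was at rank 228 in replicate 1 and 826 in replicate 2. That summit is shared with teg-1 and lies nearer to it. Another summit, nearer to mcm-10, had a pooled signal of 116. The primase gene pri-1 had 205 and div-1, a polymerase alpha subunit, 141. The mcm-6 window held 3 E2F words.

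Among the 22 genes of the segregation and centrosome list, 18 had a peak (18 and 17 in the replicates; 45 of 49 on the other 5 chromosomes; 7 by nearest gene only), and 10 of the 18 had an E2F word. The strongest were kbp-4 (851), kle-2, a condensin II subunit (653), sas-4, a centriole gene (594), smc-3 of cohesin (301) and smc-4 of condensin (296). Each of these peaks lay nearer to another gene that shares it, so by nearest gene none of these genes was bound. Without a peak in their own windows were, among others, cpar-1, dpy-28 and gip-1. The latter pair stands further down operon-like groups, described below, whose first genes were bound. The peaks of gpr-1 (147) and gpr-2 (165) belong to a pair of closely related genes of spindle positioning, and how reads that fit both were counted is not stated. The DNA repair list had 12 of 19 bound (7 by nearest gene), led by polh-1 (910), brc-1, the BRCA1 homologue (519), mrt-2, a checkpoint clamp subunit (506), cku-80 (280) and exo-1 (277), and brc-2, cku-70 and clk-2 were among the 7 that were not. By nearest gene polh-1 and cku-80 were not bound. Of 11 cell-cycle control genes 4 were bound (36.4%, interval 10.9 to 69.2, which includes the 24.3% of all genes). These were emb-1 (263, shared with prp-19), cdk-1, the mitotic kinase (183, shared with iff-1), apc-11 (58.4) and such-1 (40.3), while apc-2, cdc-25.3 and cul-1 were among the 7 unbound.

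The DREAM complex has 3 genes on III. lin-9 had a strong peak at -156 bp (634 pooled, 405.1 and 225.4 in the replicates, ranks 106 and 122). lin-52 had a weak one, at -938 bp and shared with ZK632.9 (40.1, with 23.9 and 16.2, ranks 2273 and 2258). lin-37 had none, and by nearest gene 1 of the 3 was bound. Of 6 other synMuv genes, a class known for repressing vulval fate, lin-36 (174), lin-13 (150), epc-1 (135) and ssl-1 (37.5) were bound, and hpl-2, the HP1 homologue, and met-2, a histone H3 methyltransferase, were not.

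Cytoplasmic ribosomal protein genes were bound nearly as often as replication genes, with fewer E2F words. On III 16 of 18 had a peak (16 in each replicate; 56 of 63 elsewhere; 10 by nearest gene), with a median signal of 234 and a median distance of -296.5 bp from the 5′ end, against -139 bp for replication genes. Only 1 of the 16, rps-12, had an E2F word, against 8 of 13 replication genes. After rpl-3, rpl-35, rps-22 and rps-12 came rps-1 (455), and rpl-16 and rpl-37 were the unbound ones. These counts are small, and 2 of the 16, rps-14 and rpl-36, share 1 peak.

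Other housekeeping lists were bound at shares above 24.3%, with wide intervals at these small numbers: nuclear pore 7 of 8 (led by ran-1, 250), translation factors 5 of 6 (eef-1A.1, 632), splicing 8 of 10 (snr-6, 774), proteasome 6 of 8 (rpn-3, 300.3), respiratory chain 6 of 9 (cox-5A, 1436), mitochondrial ribosomal proteins 14 of 22 (mrpl-44, 236), and both CCT chaperonin genes, cct-6 (577) and cct-5 (210.4). With the nearest gene only, nuclear pore fell to 3, translation factors to 2, splicing to 5, the respiratory chain to 4, mitochondrial ribosomal proteins to 8 and the chaperonin to 0, while the proteasome kept 6. Tubulins had 3 of 4 bound (tbb-1, 264) and aminoacyl-tRNA synthetases 3 of 6 (rars-1, 367), each 1 by nearest gene. RNA polymerase, TFIID and Mediator genes, with 6 of 15 and 3 by nearest gene, were led by rpb-8 (367), which shares the rars-1 peak. Of the remaining lists, meiotic, histone and small RNA genes were above that share, germline, neuronal, muscle and collagen genes below it, all in small numbers. Bound were small RNA pathways 2 of 7 (rde-4 and mut-7; 1 by nearest gene), germline and P granule genes 1 of 5 (cgh-1, a germ granule helicase, 616, but not glp-1, pie-1, pgl-2 or cpb-1), meiotic prophase 2 of 3 (cra-1 and xnd-1; 1 by nearest gene), neuronal genes 4 of 18 (unc-16, 169), muscle genes 1 of 6 (unc-45, a myosin chaperone, 410.2), core histones 1 of 3 (his-72) and collagens 1 of 12 (col-8; 0 by nearest gene). No chemoreceptor (31), nuclear hormone receptor (8) or neuropeptide gene (17) of III was bound. Of the neuronal list unc-119 (III:10902641-10908935), whose rescuing copy is in the array, was unbound and was the nearest gene of no peak.

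**Figure D4:**
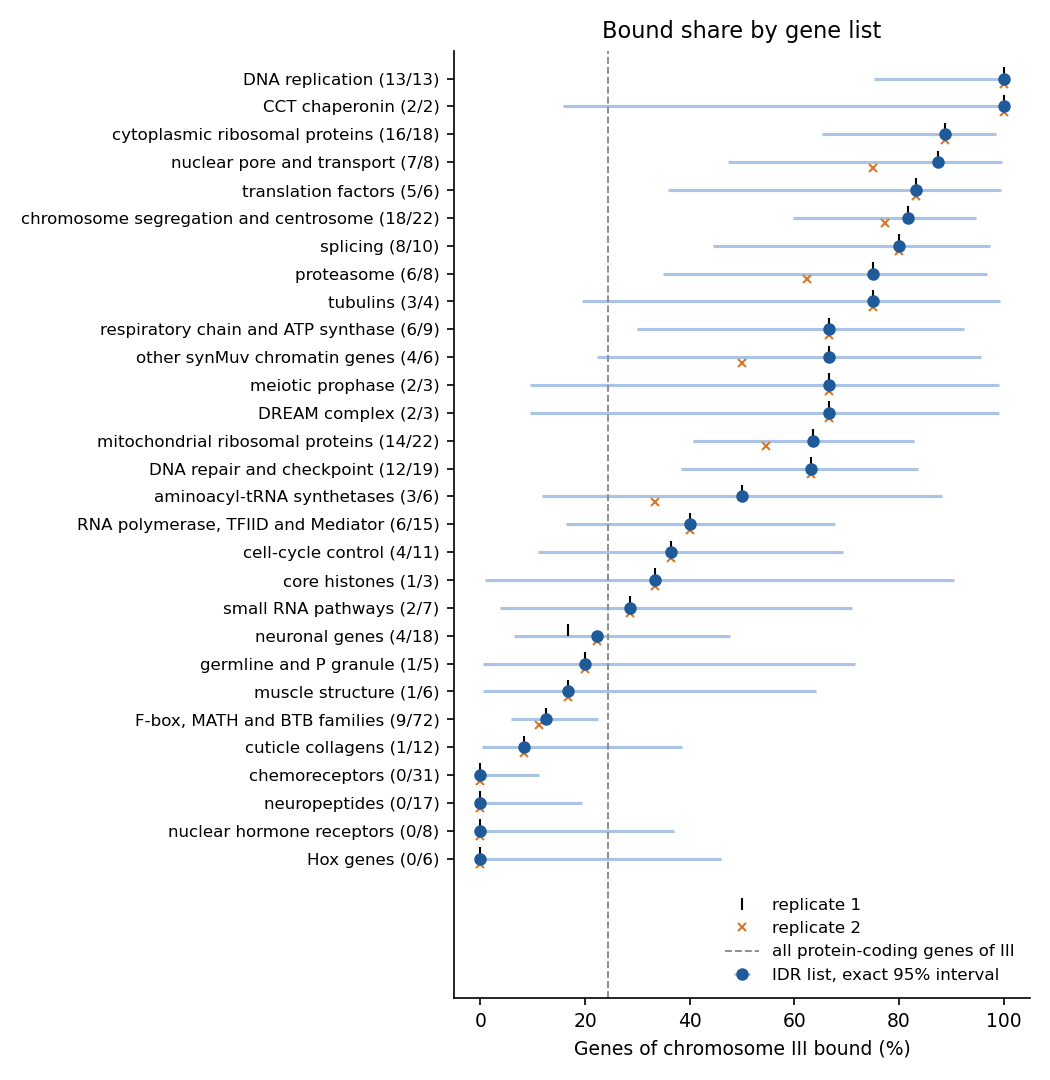
Share of chromosome III genes bound (%, horizontal axis) for each gene list, with counts in the labels; points are the IDR list with exact 95% intervals, ticks and crosses the replicates, and the dashed line the share of all protein-coding genes of III (24.3%). DNA replication lies at 100% (13 of 13), and chemoreceptors, nuclear hormone receptors, neuropeptides and Hox genes lie at 0.

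In C. elegans operons, several genes are transcribed from 1 promoter upstream of the first. Operons were not annotated in the gene models used, so operon-like groups were runs of protein-coding genes on 1 strand with gaps of at most 500 bp. III had 427 such groups. Their first genes were bound in 205 cases (48.0%, interval 43.2 to 52.9; 47.8% and 45.4% in the replicates, 46.6% ± 1.66, SD, n = 2). Genes further down the groups were bound in 92 of 648 cases (14.2%; 13.9% and 13.3%) and genes outside groups in 345 of 1565 (22.0%; 23.1% and 21.0%). The gaps between the 3 classes exceeded the replicate spread. On the other 5 chromosomes the first genes were bound in 24.4% (23.9% ± 0.947), with 35.7% on I and 8.98% on X. When a summit counted only for its nearest gene, first genes were bound in 28.6% on III and 16.7% on the other 5, so part of the 48.0% came from summits that lie nearer to another gene.

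The share was like in short and long groups: the first gene was bound in 132 of 280 groups of 2 genes, 46 of 99 groups of 3 and 27 of 48 longer ones. The longest groups with a bound first gene began with prp-19, a splicing factor (6 genes, signal 263), ndus-8, a complex I subunit (6 genes, 89.9), tag-266 (6 genes, 77.9), F20H11.4 (5 genes, 577) and eif-2Balpha, a translation factor (5 genes, 125). The longest group of all, 7 chemoreceptor genes from srg-7, had no bound gene. Of the 92 bound genes further down, 69 had a summit outside the window of the first gene, which neighbours in the group may share. By nearest gene, 64 of the 648 were bound. In the group of npp-15, a nuclear pore gene with a signal of 83.6, the downstream pair C29E4.12 and kle-2 had a peak of 653. In the group of C26E6.12 the first gene was unbound, while set-2, a histone H3 lysine methyltransferase, had 305 and rpb-8 with rars-1 had 367. Likewise lin-37 and the first gene of its group, ZK418.7, were unbound, while ZK418.5 within it had 432. Several genes named above as unbound stood further down groups with a bound first gene. Among them were dpy-28 (first gene tasp-1, 1833), gip-1 (ppm-1.D, 353), hpl-2 (K01G5.10, 1833), clk-2 (cux-7, 180) and rpl-16 (lias-1, 155).

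The replicates agreed on where the peaks were and less on the weak ones. A summit within 100 bp was present in the full list of replicate 1 for 599 of the 611 peaks, of replicate 2 also for 599, and of both for 588 (96.2%, interval 94.4 to 97.6); 1 peak, in egl-5, had neither. Part of this is built in, since the IDR list was made from both replicates and each full list holds 30000 peaks. Against the strongest 2797 peaks of each replicate alone, 562 and 529 were matched. Those lists placed 620 and 591 peaks on III, of which 484 were shared (78.1% and 81.9% of each). Over the 588 peaks the replicate signals had a Spearman correlation of 0.872 and a Pearson correlation of log2 signal of 0.903. These describe peaks that are strong in the pooled data and were found in both replicates, and they share libraries and possibly a control. The largest differences in rank were all at weak peaks: between C28H8.2 and tdo-2 (ranks 28094 and 2577), in introns of ncx-7 (2336 and 20209) and tim-1 (2001 and 18621), near B0284.3 (2725 and 13403) and at Y47D3A.14 with aakb-2 (1752 and 11828). Their pooled signals were 31.4 to 44.9.

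**Figure D5:**
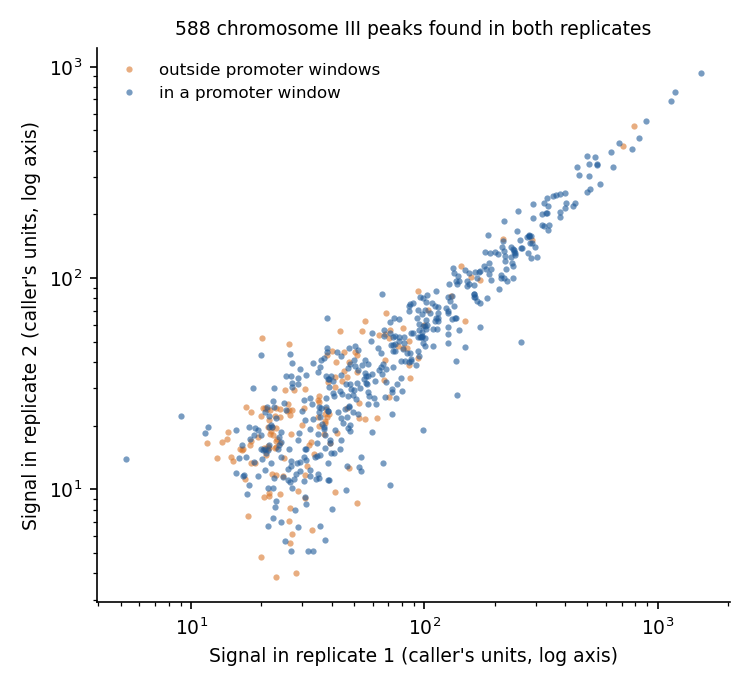
Signal in replicate 1 (horizontal, log axis) against replicate 2 (vertical, log axis), in the caller's own units, for the 588 chromosome III peaks with a summit in both lists; colours separate peaks inside and outside promoter windows. The points follow 1 line over the whole range and scatter more at low signal (Spearman 0.872).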

How the data were processed

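DPL-1 ChIP-seq of 2 biological replicates was used as deposited peak lists. Per the deposited file listings, the authors called relaxed peaks on each replicate and on both pooled, each with 1 control, and derived the IDR list from them. The signal and the −log10 q-value are the peak caller's values as deposited by the authors; the signal's scale, read depth, aligner, caller and IDR threshold, with their versions, were not given in the sources used here, so signal was ranked within 1 list only, and precision is limited by unknown depth. The −log10 q-value was read but carries no result. Tests showed that the IDR list holds the strongest 2797 of 23883 pooled peaks. Replicates are given by their own strongest 2797 of 30000 peaks. The ce10 IDR list also has 611 peaks on III. No column of per-sample values was left out.

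Summits (start plus the deposited offset, 1-based) were joined with the Ensembl release 115 annotation of WBcel235. Promoter windows ran from 1000 bp upstream to 200 bp downstream of each annotated 5′ end; operon-like gaps were at most 500 bp; summits within 100 bp counted as shared; words were sought within 100 bp on both strands of the RefSeq WBcel235 genome. Of 484 gene symbols asked for, 6 were not matched. Python 3.11.15, numpy 2.4.6, pandas 2.3.3, scipy 1.17.1 and matplotlib 3.10.9 were used, and the code was tested on simulated data. No test across genes was made, since there is 1 group with 2 replicates. Members, gene lists and rules were chosen with earlier results of these data known. The genes named are those of the 20 strongest and 3 weakest peaks, up to 5 bound and 3 unbound per list (all of lists of at most 6), Hox and DREAM genes, unc-119, the 5 longest groups with a bound first gene and the 5 largest rank differences; the other genes named were chosen after their values were seen. Alternatives covered each replicate alone, the stronger part of the list, the relaxed and ce10 lists, windows, gaps and distances.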

Additional observations from a re-analysis of the deposited data

How the results depend on the processing

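The alternatives were run on levels of chromosome III, which have no direction of their own; contrasts between quintiles, arms and lists were recomputed only in each replicate, or by nearest gene for lists, as given above. The levels that moved by more than 1 SD of the replicates were these. With each replicate alone, the promoter share was 71.7% to 73.5%, the bound share of genes 23.0% to 24.8% and the bound share of first genes 45.4% to 47.8%. The share of a replicate's own strongest peaks with a summit in the full list of the other was 91.0% to 92.6%. The share with an E2F word was 23.7% to 24.0% and the median signal 33.7 to 47.4, the last on a scale of each list's own. In the strongest 1398 peaks of the list, the density was 24.2 per Mb, the promoter share 84.1%, the bound share 16.5%, that of first genes 33.7%, the share in both replicates 98.8%, the E2F share 31.4% and the median signal 165; fewer peaks are counted there by construction. In the relaxed pooled list the density was 280 per Mb (279.8), the central share 54.6%, the promoter share 36.2% and the median signal 12.0. With the centre as the middle 1 of 3 equal parts it held 41.6%. With 500 bp upstream, the promoter share was 64.0%, the bound share 19.9% and that of first genes 40.0%; with the nearest gene only the latter pair was 16.4% and 28.6%. Gaps of at most 250 and 1000 bp gave 49.9% and 42.9% for first genes. Matching within 50 and 200 bp gave 84.1% and 99.2%, and E2F words within 50 bp 18.0%. Leaving out summits near a stronger one moved no value beyond 1 SD, and the ce10 list moved neither of the 2 values it can give. No paired analysis was possible because there is a single group and no second group to pair. Read depth is unknown, so how it limits weak peaks cannot be stated.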
